A study of Mus musculus with 6 samples.

Results

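The nuclear genes for the subunits of oxidative phosphorylation were followed across 6 Illumina bead arrays of mouse luminal uterine epithelium, sampled 3.5 days post coitum (dpc). Members were the genes whose symbol on the array began with Nduf, Uqcr, Cox4i, Cox5, Cox6, Cox7, Cox8 or Atp5, or was Sdha, Sdhb, Sdhc or Sdhd. This gave 80 genes on 117 probes, out of 45281 probes on the array. Each gene was read from its brightest probe over the 6 arrays. Of the 80 genes, 71 were above background (detection p-value under 0.05) on at least 3 of the 6 arrays and were tested, among 11940 genes tested in all. By their names 76 members encode subunits, and the other 4 (Ndufaf1, Ndufa12l, Atp5s and Atp5sl) are assembly factors or factors of other function that share the prefix; Ndufa12l is now called Ndufaf2, Atp5s is Dmac2l and Atp5sl is Dmac2. Ndufa4, once placed in complex I, is counted here in complex IV.

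Control arrays numbered 3 (A, B and C) and conditional knockout arrays, here CKO, also 3 (D, E and F). In the CKO females both Alk3 alleles were floxed (Alk3flox/flox) and a Pgr-cre knock-in allele (Pgrcre/+) supplied the recombinase. Alk3, also called Bmpr1a, encodes a receptor kinase of the bone morphogenetic protein pathway, and the floxed part spans exon 2, which encodes some of its extracellular domain; Pgr-cre is active where the progesterone receptor gene is, which in the uterus includes stroma and muscle as well as epithelium. The mice were kept on a mixed C57BL/6J and 129S5/SvEvBrd background; the genotype behind the word Control, the age of the females and any pooling were not stated. The labels do not say whether each array is another animal, and the tests therefore cover only the variation among these 6 samples, which may be technical. The protocol describes frozen, homogenised uterine tissue and not how the epithelium was isolated. All arrays lay on a single chip with Control at positions A to C and CKO at D to F, so position and genotype cannot be told apart.

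Oxidative phosphorylation makes most of the ATP of resting cells. Complex I (NADH dehydrogenase) and complex II (succinate dehydrogenase) pass electrons to ubiquinone, complex III (cytochrome bc1) passes them on to cytochrome c, and complex IV (cytochrome c oxidase) passes them to oxygen. Complexes I, III and IV pump protons as they do so, and complex V (ATP synthase) uses the proton gradient to make ATP. Most subunits are encoded in the nucleus and imported, while a small core of complexes I, III, IV and V is encoded in mitochondrial DNA, so that the complexes join products of both genomes.

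Some promoters of these genes hold short sequence elements that the choice of members did not use; the shares are given as a description, with no test. RefSeq's promoter table (GRCm38.p6, 250 bases before to 50 after the start) held 72 promoters for 66 of the 80 genes. The motif of NRF1, a factor known for controlling respiratory chain genes, was searched as its core palindrome of 10 letters, which reads alike on either strand. It was present in 6.94% of the members' promoters and in 0.971% of all 32851 promoters of the same length. It lay before the start in 4 members, shown here because they belong to 3 complexes and carry the element at differing distances; the capitals mark the motif.
Atp5g2: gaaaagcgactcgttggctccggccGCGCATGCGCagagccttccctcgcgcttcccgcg
Atp5k: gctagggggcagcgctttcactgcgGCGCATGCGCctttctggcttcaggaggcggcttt
Ndufa11: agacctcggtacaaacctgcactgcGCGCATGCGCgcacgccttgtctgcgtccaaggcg
Cox6a1: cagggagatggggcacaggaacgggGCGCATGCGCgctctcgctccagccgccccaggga
These windows are chr15:102671055-102671114 on the minus strand for Atp5g2, chr5:108434415-108434474 on the minus strand for Atp5k, chr17:56717677-56717736 on the plus strand for Ndufa11 and chr5:115349086-115349145 on the minus strand for Cox6a1. The motif began 42 bases before the start in Atp5g2, 50 in Atp5k, 60 in Ndufa11 and 162 in Cox6a1. In Uqcrc1, a core subunit of complex III, it began 30 bases after the start.

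The motif of GABPA and other ETS factors, searched as CCGGAAG on both strands, was in 22.2% of the members' promoters and in 8.86% of all promoters. Among the 16 genes that held it were Sdhd of complex II, Uqcrh and Uqcr of complex III, Cox6b1 of complex IV and Atp5h of complex V. Sdhd, which had the lowest difference between the groups among the members, and Uqcr are shown, with the motif in capitals; in Sdhd it lies on the opposite strand and so reads CTTCCGG.
Sdhd: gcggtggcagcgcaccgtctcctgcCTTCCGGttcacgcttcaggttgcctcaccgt
Uqcr: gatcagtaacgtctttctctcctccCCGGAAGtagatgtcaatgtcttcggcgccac
These are chr9:50603864-50603920 and chr10:80406856-80406912, both on the minus strand, with the motif beginning 46 and 66 bases before the start. The motif of YY1, searched as AAGATGGCG on both strands, was in 12.5% of the members' promoters and in 1.4% of all promoters. Its 9 matches in the members, in 8 genes since overlapping promoters of Atp5sl hold the same site, read on the gene's own strand, as did 332 of 477 matches over all promoters. In 7 of the members' promoters it began 20 to 40 bases after the start, which was 9.72% of them, against 0.371% of all promoters. Of these 7, Ndufa9 of complex I and Atp5j2 of complex V are shown.
Ndufa9: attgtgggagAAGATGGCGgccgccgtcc
Atp5j2: ccaggacttcAAGATGGCGtcactcggtg
These are chr6:126849097-126849125 and chr5:145191500-145191528 on the minus strand. CCGGAAG ends in the letters that open AAGATGGCG, so these motifs can share bases. A match describes the letters in a window and does not show that a factor binds there.

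The arrays had 16620 to 17536 probes above background and a median of 39 to 42 beads per probe. Bmpr1a measured 9.26, 9.34 and 8.97 on arrays A to C and 8.86, 8.25 and 8.67 on D to F, as normalised log2 signal. The groups did not overlap, with a difference of -0.60 (SE 0.22, limma adjusted p 0.976), and whether the probe lies in the deleted exon is not known here. Of 9 pan-epithelial markers 8 were above background on at least 3 arrays, with mean levels of 11.5 to 11.9 on the 6 arrays, and Epcam was not. Stroma markers were also present (7 of 9, mean level 6.43 to 6.67 on Control arrays and 5.93 to 7.81 on CKO arrays), and so were Acta2 (6.85 to 10.98), Des and Smtn of the 7 smooth muscle markers, while Myh11, Tagln, Cnn1 and Actg2 were below that limit. In such bulk RNA, fewer cells of a type and less RNA per cell cannot be told apart.

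Most members gave bright signals. Their median normalised log2 signal was 11.6, against 7.90 over all 11940 genes, and 61 of the 71 tested members lay above the latter. Of the 71, 43 were among the brightest 10% of genes, from 11.3 up. A probe's brightness also reflects how well it hybridises, so levels of different genes do not rank their transcripts. By complex the medians were 11.6 for complex I (33 genes tested), 10.1 for complex II (3), 12.1 for complex III (5), 12.7 for complex IV (12) and 12.1 for complex V (14). The 4 genes that are not subunits had a median of 8.96.

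**Figure D1:**
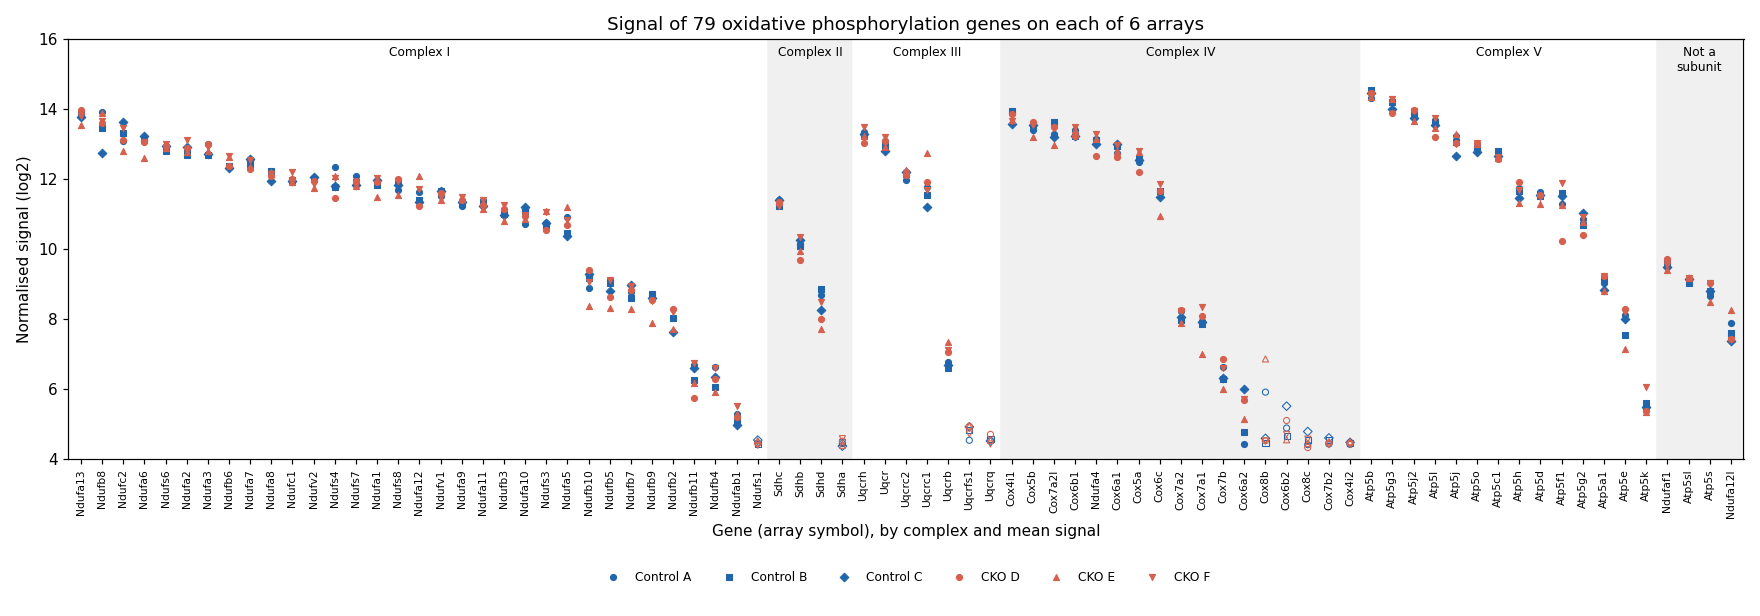
Normalised signal (log2, vertical axis) of 79 of the 80 genes on each of the 6 arrays, with genes grouped by complex and ordered by mean signal; blue symbols are Control arrays, red symbols CKO arrays, and open symbols mark genes above background on fewer than 3 arrays. For most genes the 6 points lie close together, and the 9 genes with open symbols include the core subunits Ndufs1, Sdha and Uqcrfs1.

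Atp5b and Atp5c1 of ATP synthase and Cox4i1 and Cox5a of cytochrome c oxidase were measured far above background on every array. Atp5b, the catalytic beta subunit of complex V, gave 14.32, 14.55 and 14.45 in Control and 14.46, 14.35 and 14.42 in CKO. Its CKO values all fell inside the Control range; its raw intensity was 20608 to 24891. Atp5c1, the gamma subunit that turns inside the catalytic head, gave 12.73, 12.80 and 12.64 against 12.57, 12.60 and 12.63. Cox4i1, a regulatory subunit of complex IV, gave 13.87, 13.93 and 13.58 against 13.85, 13.68 and 13.66, again with full overlap. Cox5a gave 12.48, 12.60 and 12.55 against 12.19, 12.76 and 12.79, so that the CKO arrays lay on both sides of Control.

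Complex I carries its redox centres in a set of conserved core subunits. Ndufv1, which binds NADH, gave 11.52, 11.65 and 11.64 in Control and 11.61, 11.40 and 11.47 in CKO. Ndufv2, an iron-sulphur partner of Ndufv1, gave 11.99, 12.00 and 12.06 against 11.95, 11.74 and 11.85, with all CKO values just below Control. Ndufs7 gave 12.10, 11.91 and 11.81 against 11.93, 11.78 and 11.82, and the groups overlapped. Ndufs8, which with Ndufs7 holds iron-sulphur clusters near the ubiquinone site, gave 11.67, 11.92 and 11.82 against 11.98, 11.54 and 11.94.

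Several obligate subunits were not detected by the probes present. Ndufs1, the largest core subunit of complex I, read 4.38 to 4.53 and was below background on all 6 arrays. So was Sdha, the catalytic flavoprotein of complex II, at 4.36 to 4.58 by the brighter of its 2 probes. Uqcrfs1, the Rieske iron-sulphur protein of complex III, was below background on all 6 arrays on both of its probes, and so was Uqcrq, a small complex III subunit, on its single probe. Their partners in the same complexes were bright: Sdhc gave 11.2 to 11.4, Uqcrc2 12.0 to 12.3 and Uqcrh 13.0 to 13.5. Other probes of detected members were also silent, such as a Cox5b probe at 4.37 to 4.43, while the brightest Cox5b probe read 13.19 to 13.63. The levels of these 4 genes are therefore not known here, and why their probes were dark was not tested.

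Complex IV has subunits with alternative forms that are known for different tissues, and the widespread form was detected in each pair where it was on the array. Cox6a1, Cox6b1 and Cox7b were above background on all 6 arrays. Cox4i2, known from lung and for its response to low oxygen, was below background on all 6 arrays. Cox7b2 and Cox8c, known from testis, were also below background on every array, and Cox6b2, another testis form, was above it on 2 arrays. As with the silent probes above, a dark probe does not show that the transcript was absent. Cox7a2, the widespread form, gave 8.23, 7.96 and 8.04 in Control and 8.24, 7.88 and 8.23 in CKO.

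The forms known from heart and skeletal muscle were the exception to this split in detection. Cox7a1 was above background on all 6 arrays and gave 7.93, 7.84 and 7.92 in Control and 8.09, 6.99 and 8.33 in CKO. Its Control values were nearly identical, while array E was the lowest of the 6 and array F the highest. Cox6a2 was above background on 4 arrays and gave 4.41, 4.78 and 6.00 against 5.68, 5.13 and 5.71. Cox8b was above background on A and E alone, at 5.90 and 6.85, with 4.44 to 4.58 on the others. Of the striated muscle markers on the array, Mb was above background on at least 3 arrays, at 5.30 to 5.64, and Myh6, Myh7, Actc1 and Ckm were not; their part in these values was not tested.

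The c subunit of ATP synthase, which forms the rotor ring, is made from several genes that encode the same mature protein. Atp5g3 gave 14.24, 14.19 and 13.98 in Control and 13.87, 14.28 and 14.28 in CKO. Atp5g2 gave 10.84, 10.68 and 11.03 against 10.41, 10.76 and 10.90. For both genes array D was the lowest of the 6. Atp5g1, Cox8a and Ndufa4l2 matched no symbol by the rule and were not analysed here.

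The members varied little between arrays. Their median SD within groups was 0.20 on the log2 scale, against 0.30 over all genes tested. Bright genes as a whole vary less, and among the 958 genes at least as bright as the median member the median SD was 0.19. These medians were close, but the sets are not matched in brightness. The members reached down to a mean signal of 5.22, while the bright genes began at 11.6. For 63 of the 71 members (88.7%) all 6 arrays lay within 1 log2 unit, against 63.2% of all genes and 80.8% of the bright ones. The median standard error over beads was 3.55% of a member's signal, or 0.051 in log2 units, so the spread between arrays exceeded the error of bead averaging on a single array.

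The most even members came from different complexes. Atp5sl, an assembly factor of complex I, gave 9.14, 9.03 and 9.14 in Control and 9.16, 9.17 and 9.16 in CKO (SD within groups 0.045). Atp5o, the stalk subunit that links the head of ATP synthase to the membrane, gave 12.85, 12.87 and 12.75 against 13.02, 12.99 and 13.03 (SD 0.046). Ndufa9, an accessory subunit of complex I, gave 11.22, 11.28 and 11.34 against 11.39, 11.43 and 11.49 (SD 0.056). In all 3 genes every CKO value lay above every Control value, as in 5.64% of all genes, and none of them passed the test. They were picked for a small spread within groups, which makes such a separation likelier at a small difference. Atp5sl, for example, differed by 0.061.

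Among the least even members were some with a single array far from the rest. Atp5f1, now Atp5pb, a subunit of the peripheral stalk, gave 11.27, 11.59 and 11.50 in Control and 10.21, 11.24 and 11.88 in CKO (SD 0.61). The low value on array D appeared on its other bright probe too, at 10.29 against 10.90 to 11.69 on the others. Ndufb8, an accessory subunit of complex I, gave 13.92, 13.46 and 12.73 against 13.59, 13.88 and 13.64, with Control array C lowest. Its second probe, at 7.35 on C against 8.04 to 8.86 elsewhere, placed C lowest as well. Cox6a2 had the highest SD of all members (0.63), with its values spread over several arrays, and lay close to background.

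**Figure D2:**
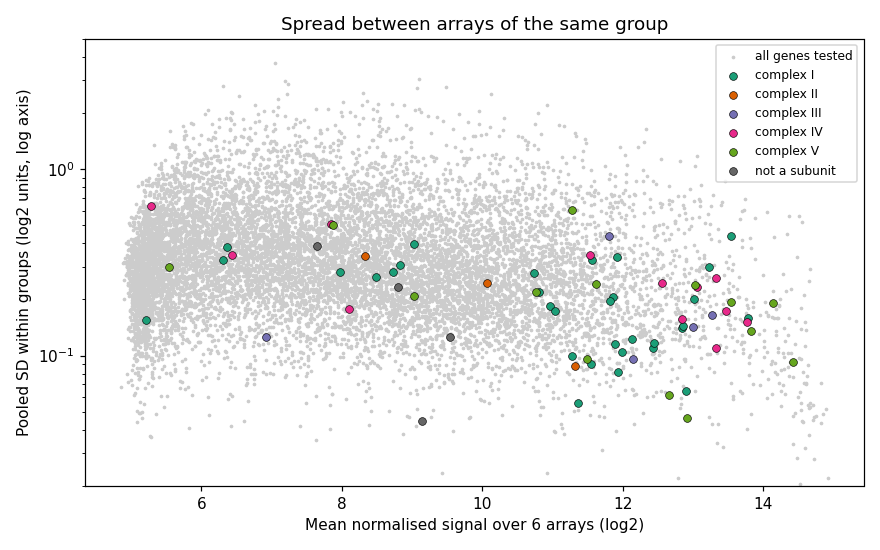
Pooled SD within groups (log2 units, on a log axis) against mean normalised signal for all 11940 genes (grey) and 70 of the 71 tested members coloured by complex. The members sit mostly at the bright end, with a median SD of 0.20 against 0.30 over all genes, and Atp5f1, Cox6a2 and Cox7a1 lie highest among them.

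Control arrays resembled each other more than CKO arrays did. The median SD of the members was 0.12 over the Control arrays and 0.24 over the CKO arrays. Over all genes these values were 0.22 and 0.31, so the wider spread of CKO was not limited to the members. Array E gave the lowest of the 6 values for 31 of the 71 members (43.7%, against 31.1% of all genes). Array F gave the highest for 25 (35.2%, against 10.8% of all genes) and the lowest for 1. The 2 CKO arrays thus lay on opposite sides, with a median deviation from each member's mean of -0.10 on E and 0.13 on F, against -0.051 and 0.0028 over all genes.

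The same order was seen in most complexes. On E the median deviation was -0.12 for complex I, -0.14 for complex II, -0.19 for complex IV and -0.085 for complex V. On F it was 0.12, 0.15, 0.15 and 0.12 in the same order. Complex III differed in that its 5 genes had a median deviation of 0.11 on E and 0.17 on F. Complex II stood lowest on D, at -0.32. Stroma markers ran the other way between these arrays, with a mean level of 7.35 on E, 7.81 on D and 5.93 on F. The mean level of the pan-epithelial markers was lowest on E (11.5, against 11.7 to 11.9 on the others). Krt19 lay furthest down there, at 8.77 on E against 10.5 to 11.8 on the others. Cdh1 and Krt8 were also lowest on E, and Cldn3 was equally low on C and E. Krt18, Krt7, Cldn4 and Cldn7 were not lowest on E. Endothelial markers (6.87 on E and 4.93 on F) and smooth muscle markers (7.33 and 5.74) were also higher on E, and erythroid markers (9.23 and 10.59) were higher on F. The mean level of glandular markers was higher on E (8.54, against 6.49 on F), but the list was split. Prss29 (10.5 and 4.69) and Spink3 (11.4 and 8.01) were higher on E, while Lif (5.33 and 5.59) and Cxcl15 (6.89 and 7.70) were higher on F. Control array A stood at 7.96 for glandular and 7.31 for smooth muscle markers. The part of these cell types in the placement of the members was not tested.

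**Figure D3:**
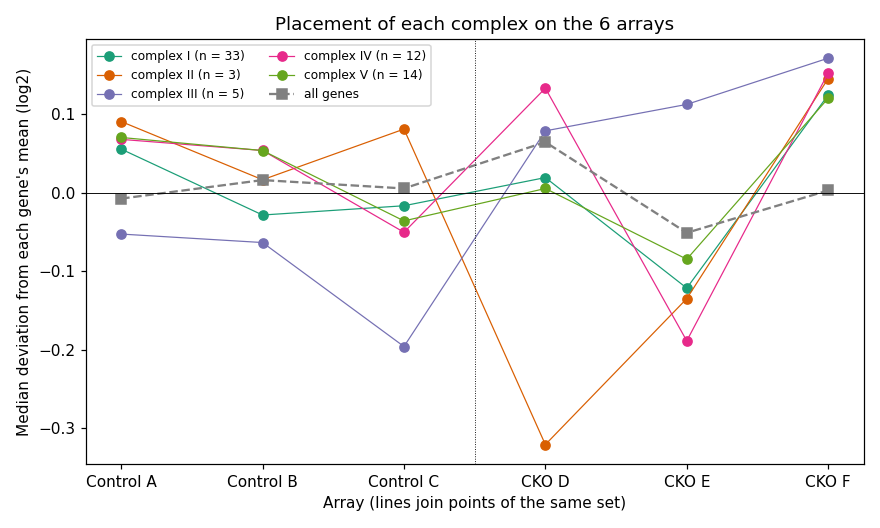
Median deviation of the tested genes of each complex from their own mean over 6 arrays (log2, vertical axis), by array, with all genes in grey; the dotted line separates Control from CKO. Complexes I, II, IV and V lie below 0 on E and above 0 on F, and complex III lies below 0 on the 3 Control arrays and above 0 on the 3 CKO arrays.

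Loss of Alk3 was compared with Control to ask whether the respiratory chain and ATP synthase genes shift as a group. No such shift was measured: 35 members had a higher mean in CKO and 36 a lower one, against 51.7% lower over all genes. The median log2 difference, CKO minus Control, was -0.0060, a change of -0.413%, beside -0.011 over all genes. The differences ran from -0.53 to 0.62, and 2 of the 71 exceeded 0.5 in size. By limma's fit over all genes 0 members were called at an adjusted p under 0.05, where 0.0168% of all genes were called higher and 0% lower. At an unadjusted p under 0.05 there was 1 member, 1.41% of those tested, against 4.72% of all genes. Among the 958 genes at least as bright as the median member that share was 1.36%.

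The balance between higher and lower depended on single arrays. Without array E 43 members were higher and the median was 0.060, and without array F 27 were higher and the median was -0.059. With array weights, which were 4.06 for B and 2.95 for F but 0.336 to 0.775 for the other arrays, 50 members were higher and the median was 0.10. No member was called under any of these.

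The intervals show how large a change these arrays leave room for. For 66 of the 71 members (93.0%) the 95% confidence interval of the difference lay within 1 log2 unit either way, a 2-fold change. That share was 69.2% for all genes and 83.4% for the bright ones. For 37 members (52.1%) the interval lay within a 1.5-fold change, against 22.9% of all genes and 50.4% of the bright ones. The 5 members whose interval reached beyond 1 log2 unit were Ndufb8, Sdhd, Uqcrc1, Cox6a2 and Atp5f1. The intervals hold for each gene singly, without correction for the number of genes. The groups did not overlap for 4 of the 71 members higher and 4 lower in CKO, against 5.64% and 5.01% of all genes, so the members' shares were near the background.

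**Figure D4:**
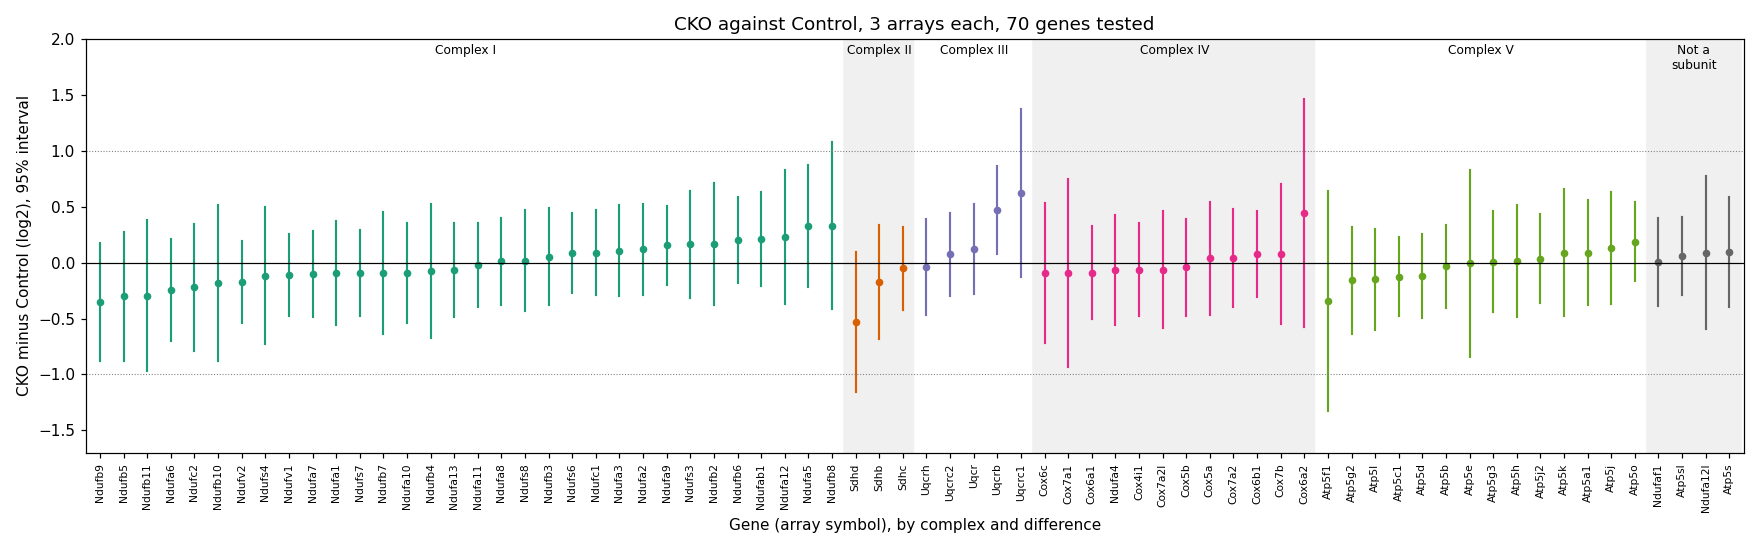
Log2 difference, CKO minus Control, of 70 of the 71 tested members with its 95% confidence interval, grouped by complex and ordered by difference; dotted lines mark a 2-fold change. All but the interval of Uqcrb include 0, and the points lie between -0.53 (Sdhd) and 0.62 (Uqcrc1).

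Complex I had 15 genes higher and 18 lower of 33, with a median difference of -0.067. Ndufb9 lay lowest, with 8.67, 8.71 and 8.59 in Control and 8.53, 7.88 and 8.50 in CKO, a difference of -0.35 (SE 0.22, adjusted p 0.976). Its groups did not overlap, but without array E the difference was -0.14. Ndufa6, another accessory subunit, gave 13.10, 13.10 and 13.23 against 13.06, 12.59 and 13.04, a difference of -0.24 that was -0.084 without E. For these 2 genes most of the difference came with array E. Ndufb5 gave 9.09, 9.03 and 8.80 against 8.62, 8.30 and 9.11, with overlap and a difference of -0.30 that was -0.11 without E. The highest difference was that of Ndufb8 (0.33), which was 0.011 without the low Control array C. Ndufa5 gave 10.91, 10.45 and 10.37 against 10.69, 11.20 and 10.82, a difference of 0.33 that was 0.18 without E; its second probe was 0.28 higher in CKO. Ndufa12 differed by 0.23, and by 0.025 without E. Ndufab1, the mitochondrial acyl carrier protein, differed by 0.21 near background, at 4.98 to 5.50, and by 0.087 with no background correction. Ndufb6 differed by 0.20, but by -0.040 on its second probe and by 0.081 as the mean of its probes.

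In complex II all 3 measured genes had a lower mean in CKO and none passed. Sdhd, a membrane anchor subunit, gave 8.67, 8.84 and 8.26 in Control and 8.01, 7.71 and 8.47 in CKO. The value on F lay above that on Control C, so the groups overlapped, and the difference was -0.53 (SE 0.26, adjusted p 0.976), from -0.73 without F to -0.35 without E. Sdhb, the iron-sulphur subunit, gave 10.15, 10.09 and 10.24 against 9.67, 9.94 and 10.35, a difference of -0.17 that was -0.018 without D. Its next brightest probe differed by -0.31, and a probe near background by 0.15 in the other direction. Sdhc, the other membrane anchor, gave 11.41, 11.22 and 11.40 against 11.34, 11.33 and 11.21 and differed by -0.052. The median over these 3 genes was -0.17, and the 3 genes shared the same 6 samples.

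Complex III held both of the highest differences among the members. Uqcrb, a small subunit near the ubiquinone site, gave 6.78, 6.60 and 6.69 in Control and 7.05, 7.34 and 7.10 in CKO. All 3 CKO arrays lay above all 3 Control arrays, at 0.47 (SE 0.16, by limma unadjusted p 0.025, adjusted p 0.976). The difference stayed between 0.39 and 0.53 with single arrays left out. It was 0.33 with normexp background correction lacking control probes and 0.32 with no background correction. Uqcrb was dim, with a raw intensity of 161 to 227. Taken over all tested members, and not for Uqcrb alone, the smallest limma adjusted p with array weights was 0.230. Uqcrc1, a core subunit, gave 11.75, 11.53 and 11.21 against 11.91, 12.75 and 11.69, a difference of 0.62 (SE 0.31, adjusted p 0.976) with overlapping groups. Array E was highest, and without it the difference was 0.31. Uqcrc2, its partner core subunit, gave 11.98, 12.14 and 12.21 against 12.12, 12.26 and 12.17 and differed by 0.073, Uqcr by 0.12 and Uqcrh, the hinge protein, by -0.039.

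Complex IV had 5 genes higher and 7 lower of 12, with differences of -0.095 to 0.44 and a median of -0.051. The 0.44 was that of Cox6a2, near background, and the other 11 genes lay within 0.1 of 0. Cox5b differed by -0.041, Cox6a1 by -0.089, Cox6b1 by 0.077 and Cox7a2l, a factor that joins complexes III and IV, by -0.062. Cox7a2l was lower in CKO by both of its probes, at -0.37 by the dimmer one. Cox7a1 differed by -0.090 with all arrays and by 0.32 without E. Ndufa4 gave 13.14, 13.12 and 13.00 against 12.66, 13.13 and 13.27, with the single low value on D.

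Complex V had 7 genes higher and 7 lower of 14, with a median difference of 0.00069. Atp5o had the highest difference at 0.19 (SE 0.15, adjusted p 0.976), with groups that did not overlap. Its other probes, both dimmer, differed by -0.15 and -0.093, so the direction was not shared. Atp5f1 had the lowest at -0.34 (SE 0.41), and without D its sign changed, to 0.11. Atp5c1 differed by -0.12 (SE 0.15), also with no overlap. Atp5a1, the alpha subunit, differed by 0.089, Atp5j by 0.13 and Atp5j2 by 0.035. Of the 4 genes that are not subunits all had a higher mean in CKO, by 0.0028 to 0.097. Over all complexes 20 members had more than 1 probe above background on at least 3 arrays, and for 9 of these the probes differed in sign, as is possible where differences are close to 0.

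Other genes of energy metabolism were taken as whole lists, chosen by function. Of 8 mitochondrially encoded genes on the array 7 were tested, 5 higher and 2 lower in CKO, with a median difference of 0.043 and 0 called. mt-Nd5 gave 9.25, 8.94 and 8.89 in Control and 8.50, 8.81 and 8.39 in CKO. Its difference was -0.46, with no overlap, as in 5.01% of all genes. mt-Nd4l had the largest difference of the list, 0.56 higher in CKO, with overlap. mt-Nd4 differed by 0.14 and mt-Cytb by 0.027. The mt-Atp6 probe is named Gm10925 by the RefSeq table, a copy in the nuclear genome, so its source is uncertain. Electron carriers and the ATP synthase inhibitor had 3 of 6 higher, assembly factors 14 of 26, citrate cycle genes 7 of 14 and glycolysis genes 7 of 14. Their median differences lay between -0.046 and 0.012, and 0 were called in any of these lists.

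Regulators of mitochondrial gene expression had 6 of 10 higher, with a median of 0.058 and 0 called. The differences ran from -0.69 for Tfb1m to 1.10 for Pprc1, a coactivator of the PGC-1 family; without E the Tfb1m difference was -0.18. Pprc1 gave 8.30, 7.73 and 7.05 in Control and 8.67, 9.25 and 8.45 in CKO, with SE 0.37 and an adjusted p of 0.976. Ppargc1b, of the same family, gave 5.89, 6.17 and 5.04 against 6.96, 6.20 and 6.31, a difference of 0.79 (SE 0.35, adjusted p 0.976) that was 0.46 without C. In both genes every CKO array lay above every Control array, as in 5.64% of all genes. These were 2 of the 10 regulators tested and were named after their values were seen. Ppargc1b was also dim. Ppargc1a and Yy1 were above background on fewer than 3 arrays. Nrf1 differed by 0.064, and by -0.16 without D, and Gabpa by 0.20, and by 0.020 without A, with groups that overlapped, and Tfam, which packages and transcribes mitochondrial DNA, by -0.011.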

How the data were processed

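The authors deposited scanner tables that give a bead-averaged intensity, a detection p-value, a bead standard error and a bead count per probe, per the file headers; no background subtraction or normalisation was seen in these values. The authors also deposited processed intensity values, used as an alternative. Their software was not stated. Intensities were background-corrected with negative controls inferred from detection p-values, then quantile-normalised on a log2 scale after adding 16 (limma 3.58.1, function neqc, in R 4.3.3); the added value shrinks the differences of dim genes. Probes with a detection p-value under 0.05 on at least 3 of 6 arrays were kept and named through RefSeq accessions and symbols (GRCm38.p6), which served for names and promoters only. The brightest probe stood for its gene. Transcripts of pseudogenes can add to a probe's signal. Differences between CKO and Control came from a two-sided limma fit (lmFit, eBayes), with p-values adjusted by Benjamini-Hochberg over 11940 genes; the fit was tested on simulated data. Signal over background and 3 arrays a group limit the precision.

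Named members were those with the smallest p (up to 6 a direction), the 3 most and 3 least even, and listed core and isoform genes; Ndufb8, Ndufa12 and other members given by a difference alone, and the genes named from the other lists, were chosen after their values were seen. The members and lists were chosen with earlier results of these data known. Alternatives were other background corrections, normalisations, filters, probe rules, variance models and leaving out each array. The values of 1 named member are not reported here.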

Additional observations from a re-analysis of the deposited data

How the results depend on the processing

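Members called stayed at 0 under all 16 alternatives, with a smallest adjusted p of 0.230 (array weights). Genes called over all genes, 2 with the settings described, numbered 5 with array weights, 1 each with the deposited values, cyclic loess, uncorrected background and normexp lacking control probes, and 0 each with no filter and the strict filter. Leaving out an array at a time gave 0 to 1. Array weights moved the median difference of the members from -0.0060 to 0.10, that of complex I to 0.12, of complex III to 0.22 and of complex IV to 0.14. With single arrays left out the members' median ran from -0.059 to 0.060, that of complex I from -0.086 to 0.059, II from -0.35 to -0.075, III from 0.079 to 0.20, IV from -0.074 to 0.095 and V from -0.10 to 0.038. The cause was not tested.

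Of 37 named members 21 had the same sign in all alternatives. Atp5b turned to 0.0020 with median scaling and 0.011 with cyclic loess, and with the mean of probes Atp5o turned to -0.017 and Cox5b to 0.039. Array weights turned Cox7a1 to 0.32, Atp5f1 to 0.10, Sdhb to 0.12, Cox6a1 to 0.0051, Ndufa4 to 0.082 and Atp5g2 to 0.087. With single arrays left out Atp5b ran from -0.096 to 0.023, Atp5f1 from -0.72 to 0.11, Atp5g3 from -0.067 to 0.14, Cox4i1 from -0.17 to 0.0049, Cox5a from -0.065 to 0.24 and Cox5b from -0.13 to 0.087. Cox7a1 ran from -0.36 to 0.32, Cox7a2 from -0.023 to 0.16, Cox7a2l from -0.16 to 0.10, Cox7b from -0.11 to 0.33, Ndufa4 from -0.20 to 0.12 and Ndufs8 from -0.066 to 0.16. No paired analysis was possible because the groups share no replicate letter. Signal over background limits Ndufab1, Cox6a2 and Atp5k, and also the dim Uqcrb.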
